A study of Homo sapiens with 8 samples.

Results

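Chromosome 19 carries large clusters of zinc finger genes, and 247 of them were followed here through RNA pull-downs from edited leukaemia cells. They are the protein-coding genes on chromosome 19 named ZNF with a number and at most 1 letter, out of 63140 genes in the deposited table. Another 18 genes on the chromosome had such a symbol but were not annotated as protein-coding, and were left out. Of the 247 members, 230 had a count in some library, 17 were at 0 in every library, and 186 had enough counts to be tested. The 61 untested members reached at most 0.330 CPM on average (CPM are counts scaled to a common library size).

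Most of these genes encode DNA-binding proteins with a tandem array of zinc fingers, each finger reading a short stretch of bases. Many also carry a KRAB domain, which recruits the corepressor TRIM28 and, through it, the histone methyltransferase SETDB1 and HP1 proteins, so that the bound chromatin is silenced. The family is known for holding transposable elements silent and for having grown by repeated duplication into clusters along the chromosome, which leaves neighbouring genes alike in sequence.

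The 8 libraries were labelled as MOLM13 and OCI-AML4, established lines of human acute myeloid leukaemia, harvested on day 3 after editing. Cas9 ribonucleoprotein, which cuts DNA, made the knockout (KO) groups, and a cytosine base editor (CBE), which turns C into T without cutting both strands, made the others. Guides went either to the long non-coding RNA HOTSCRAMBL or to AAVS1, the editing control, a site within PPP1R12C on this same chromosome. The groups are therefore HOTSCRAMBL KO, AAVS1 KO, HOTSCRAMBL CBE and AAVS1 CBE, each with 1 library labelled MOLM13 (replicate 1) and 1 labelled OCI-AML4 (replicate 2), and every group, controls included, was edited. The labels give the genotype of the AAVS1 groups as WT and name the edit for the HOTSCRAMBL groups, and do not say whether edited cells were single clones or pools. The labels of the lines are in doubt: in an edgeR test over all 8 libraries, 119 of 24057 genes (0.495%) differed between the libraries labelled MOLM13 and OCI-AML4, and the deviations of same-numbered libraries from their group means correlated at 0.0203 to 0.0530 across these genes. Replicates 1 and 2 are therefore called labelled lines throughout.

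ChIRP uses biotinylated DNA probes to pull RNA, with what is cross-linked to it, out of a sonicated lysate, and here the recovered RNA was sequenced. The labels do not state the target of the probes and name no input library, so a level here is an amount of RNA in a pull-down. In bulk RNA of this kind, fewer cells with a transcript and less of it per cell cannot be told apart. Total counts ran from 20548300 to 37970163. The 11 myeloid markers listed summed to between 1733 and 2345 CPM, with 2 of them under 1 CPM, while T cell markers summed to at most 2.60, erythroid markers to 0.212, epithelial markers to 1.72 and B cell markers to 11.4 CPM. Of the 10 myeloid markers tested, CEBPA and LYZ rose with knockout, and PTPRC and CEBPA rose and CSF3R fell with base editing. On average over the editors, CEBPA and LYZ were higher, and CD33, MPO, CSF3R and ITGAM were lower. LYZ, the lysozyme gene, went from 119.98 and 141 CPM in AAVS1 KO to 506 and 702 CPM in HOTSCRAMBL KO, while its base-edited libraries held 116 and 142 CPM with AAVS1 and 148 and 152 CPM with HOTSCRAMBL (log2 fold change 2.20 and 0.23, edgeR adjusted p = 9.41e-13 and 0.338). CEBPA, a myeloid transcription factor gene, changed by 1.00 and 0.61 (adjusted p = 4.62e-06 and 0.00212). The part of these marker changes in the members' values was not tested. The level of HOTSCRAMBL itself was not analysed here. Nothing in the labels says that the 2 libraries of a group were more than 1 culture of each line, so each p-value measures the spread between these libraries.

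The members together took a small share of the counts. That share was lowest in HOTSCRAMBL CBE replicate 2, at 0.444% (95% Wilson interval 0.441 to 0.446%), and highest in HOTSCRAMBL KO replicate 1, at 0.522% (0.519 to 0.525%). These intervals reflect counting error alone: the reads carry no molecular identifiers, so they are not separate molecules. Both HOTSCRAMBL CBE libraries, at 0.460% and 0.444%, lay below every other library. In summed CPM of the members, HOTSCRAMBL KO stood highest, at 5469 and 5343, against at most 4886 elsewhere. ZNF431 alone held 1029 and 1216 CPM of these sums, against at most 580 CPM in any other library. The excess therefore rests largely on that gene and does not describe the members as a set. The median tested member had a mean of 14.8 CPM, against 19.7 for all tested protein-coding genes, 18.7 for ZNF genes on other chromosomes and 25.5 for other coding genes on chromosome 19. Per kilobase of exon, the medians were 2.54 CPM for the members and 3.93 CPM for the other ZNF genes. Of the tested members, 25 lay above 50 CPM and 54 below 5 CPM. On the same per-kilobase scale the most abundant members were ZNF460 at 45.2, ZNF431 at 45.1, ZNF146 at 28.2, ZNF121 at 20.3 and ZNF526 at 19.9 CPM per kilobase. Of ZNF460 exonic bases, 24.6% lie under another gene, and reads there were not counted, so its value per kilobase is uncertain.

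The clearest change was a rise of ZNF431 and ZNF493, which lie in one cluster on the short arm, after HOTSCRAMBL knockout. ZNF431 (ENSG00000196705, GRCh38 chr19:21142024-21196053) encodes a KRAB zinc finger protein whose mouse counterpart has been described as a repressor of the Hedgehog receptor gene Ptch1. Its level in replicates 1 and 2 was 382 and 449 CPM in AAVS1 KO, 1029 and 1216 CPM in HOTSCRAMBL KO, 422 and 469.7 CPM in AAVS1 CBE, and 580.4 and 551 CPM in HOTSCRAMBL CBE. Both HOTSCRAMBL KO libraries stood above every other library, and both HOTSCRAMBL CBE libraries stood above all 4 controls. The log2 fold change was 1.43 ± 0.0985 (SE, n = 2 libraries per group) with knockout (adjusted p = 4.33e-11, edgeR quasi-likelihood test with Benjamini-Hochberg adjustment over all genes). With base editing it was 0.35 ± 0.0972 (SE; edgeR adjusted p = 0.0205).

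ZNF493 (ENSG00000196268, chr19:21397119-21427577), another zinc finger gene of that cluster, had 52.4 and 61.8 CPM in AAVS1 KO and 138 and 149 CPM in HOTSCRAMBL KO. In the base-edited groups it had 52.7 and 57.6 CPM with AAVS1 and 67.8 and 71.4 CPM with HOTSCRAMBL. The knockout pair again stood above all 6 other libraries. Its log2 fold change was 1.33 ± 0.169 with knockout (edgeR adjusted p = 2.57e-06), while the value of 0.34 with base editing did not pass the test (adjusted p = 0.278). The knockout calls of ZNF431 and ZNF493 were kept in all 16 alternatives run, each library left out in turn included. The base editing call of ZNF431 was kept in 8 of 16. It was lost without either AAVS1 KO library, without either AAVS1 CBE library and without HOTSCRAMBL CBE replicate 1, at adjusted p from 0.0631 to 0.529.

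The promoters of these genes are shown because the pair that rose has near relatives beside it that did not pass the test. The lines give the bases before each gene in RefSeq's GRCh38.p14 promoter table, 5′ to 3′ on the plus strand: ZNF431 at chr19:21141790-21142023, ZNF493 at chr19:21396883-21397118 and ZNF714 at chr19:21081953-21082158. Capitals mark exact runs of at least 12 aligned bases, shared between ZNF431 and ZNF493 in the first and second lines, and with ZNF431 in the line of ZNF714. A run that reaches into the gene stops at the end of the line.
ZNF431: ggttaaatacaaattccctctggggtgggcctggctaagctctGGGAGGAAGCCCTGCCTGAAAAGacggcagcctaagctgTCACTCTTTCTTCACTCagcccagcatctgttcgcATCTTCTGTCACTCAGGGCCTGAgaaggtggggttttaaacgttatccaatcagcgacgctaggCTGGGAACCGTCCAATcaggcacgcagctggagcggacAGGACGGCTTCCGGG
ZNF493: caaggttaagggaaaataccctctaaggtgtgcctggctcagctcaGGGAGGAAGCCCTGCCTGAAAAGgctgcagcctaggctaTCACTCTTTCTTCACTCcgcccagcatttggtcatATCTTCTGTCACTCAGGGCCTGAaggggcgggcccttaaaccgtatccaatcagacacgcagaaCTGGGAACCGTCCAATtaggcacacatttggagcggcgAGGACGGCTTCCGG
ZNF714: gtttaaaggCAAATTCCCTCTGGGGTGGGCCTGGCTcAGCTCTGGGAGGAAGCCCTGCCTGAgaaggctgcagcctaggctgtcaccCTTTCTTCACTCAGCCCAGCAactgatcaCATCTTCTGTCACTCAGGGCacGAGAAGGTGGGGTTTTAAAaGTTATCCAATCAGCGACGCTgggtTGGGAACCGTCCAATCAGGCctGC

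Over the 250 bases before the RefSeq start, ZNF431 and ZNF493 had 81.4% identical aligned positions and 5 such runs, the longest of 23 bases. The median over 16110 pairs of members with 1 promoter each was 46.5%, and the 95th percentile was 51.7%. ZNF714 was closer still to ZNF431, at 92% identical positions and a longest run of 27 bases. Its level was 122 and 105 CPM in AAVS1 KO, 138 and 90.9 CPM in HOTSCRAMBL KO, 119.6 and 121 CPM in AAVS1 CBE, and 141 and 134 CPM in HOTSCRAMBL CBE. The knockout groups of ZNF714 overlapped, and its log2 fold change was 0.00 ± 0.165 (edgeR adjusted p = 1). Of 16 members at or above 80% identity to ZNF431, 5 were tested and 1, ZNF493, passed the test with knockout. The share over all genes was 8.76%. Among the 5, ZNF91 and ZNF85 were scarce, at means of 0.990 and 0.451 CPM. Their log2 fold changes had SE of 1.92 and 5.17, so these genes say little about the relatives. ZNF430, at 84.3% identity, had a log2 fold change of -0.09 (adjusted p = 0.895). ZNF708, which lies between ZNF431 and ZNF493 on the chromosome, had 0.40 (adjusted p = 0.350). ZNF714, ZNF430 and ZNF708 were picked after their values were seen, as neighbours or promoter relatives.

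**Figure D1:**
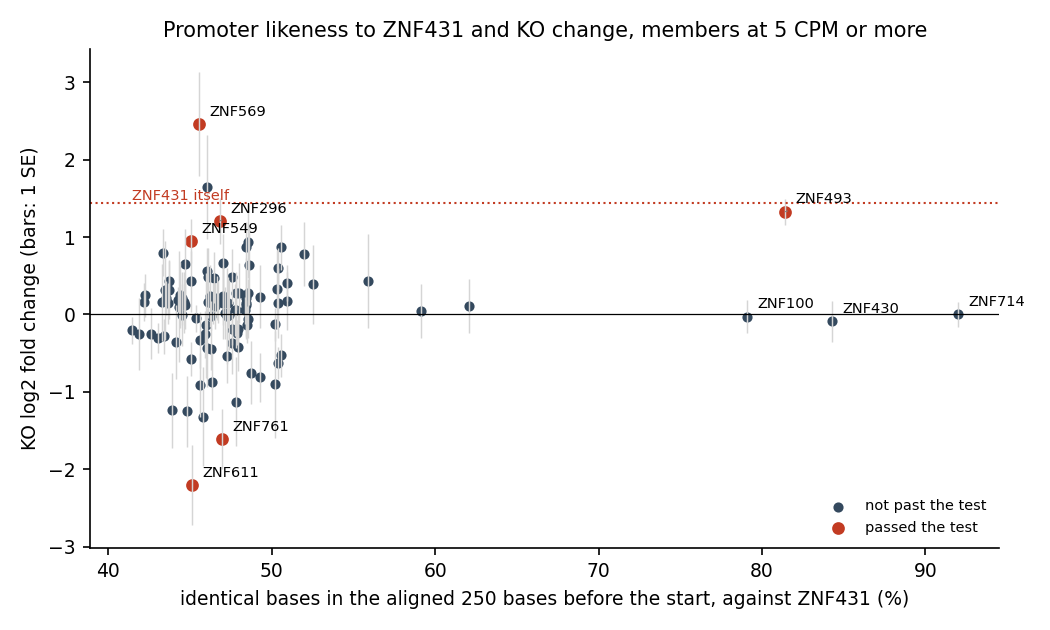
Each point is a member with a mean of at least 5 CPM and 1 RefSeq promoter (103 genes); the x axis gives the percent of identical aligned bases against the ZNF431 promoter, and the y axis the log2 fold change of HOTSCRAMBL KO against AAVS1 KO with bars of 1 SE. ZNF714 and ZNF430, to the right at 92% and 84.3%, sit near 0, while ZNF493 at 81.4% sits at 1.33, near the dotted line that marks ZNF431 itself.

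Across the members, knockout changed 9 of 186 tested genes (4.84%), 6 higher and 3 lower, against 8.76% of all genes tested (4.51% higher and 4.25% lower). Beside ZNF431 and ZNF493, the members that rose were ZNF296, ZNF569, ZNF570 and ZNF549. Those that fell were ZNF611, ZNF761 and ZNF534. At an unadjusted p under 0.05 there were 32 members (17.2%), against 20.1% of all genes. The median log2 fold change was 0.11 over the members and -0.01 over all genes tested, and 104 of 186 members had a positive value. Scaled by library totals alone, without TMM, the median of all genes moved to -0.17 and that of the members to -0.05, and 11 members (5.91%) were called, 4 higher and 7 lower, 7 of them shared with the 9. Under that scaling 10.5% of all genes were called, 3.49% higher and 7.05% lower.

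ZNF296 (chr19:45071500-45076478) encodes a zinc finger protein studied in pluripotent cells and differs from most members in lacking the linker sequence described further on. It had 16.4 and 21.7 CPM in AAVS1 KO and 40.2 and 47.6 CPM in HOTSCRAMBL KO, with 21.1 and 16.1 CPM in AAVS1 CBE and 20.6 and 28.9 CPM in HOTSCRAMBL CBE. The knockout pair lay above all other libraries, and the base-edited groups overlapped. Its log2 fold change with knockout was 1.21 ± 0.293 (edgeR adjusted p = 0.00743). The call was lost when any of the 4 KO libraries was left out (adjusted p from 0.0855 to 0.194).

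ZNF569 and ZNF570 are neighbours that overlap at one end (chr19:37411155-37469275 and chr19:37467585-37488652), sharing 4.35% and 3.49% of their exonic bases. Reads from such an overlap were not counted for either gene. ZNF569, a KRAB protein reported to repress MAP kinase signalling, had 1.41 and 2.20 CPM in AAVS1 KO and 8.98 and 10.8 CPM in HOTSCRAMBL KO. ZNF570 had 5.61 and 7.20 CPM in AAVS1 KO and 23.8 and 13.4 CPM in HOTSCRAMBL KO. For each gene both knockout values exceeded all 6 others: in the base-edited groups ZNF569 ran from 3.67 to 7.29 CPM and ZNF570 from 7.98 to 11.8 CPM. The log2 fold changes with knockout were 2.46 ± 0.671 for ZNF569 (edgeR adjusted p = 0.0184) and 1.52 ± 0.463 for ZNF570 (adjusted p = 0.0392). Leaving out any KO library ended the ZNF569 call (adjusted p from 0.0830 to 0.275). ZNF570, described as the neighbour of ZNF569 after its values were seen, kept its call in 1 of 8 omissions, that of HOTSCRAMBL KO replicate 2 (adjusted p from 0.0659 to 0.499 in the others). ZNF549 (chr19:57527325-57557542) had 33.5 and 14.7 CPM in AAVS1 KO and 47.3 and 43.8 CPM in HOTSCRAMBL KO, a log2 fold change of 0.95 ± 0.282 (adjusted p = 0.0339). Its AAVS1 KO libraries differed widely from each other, and leaving out any 1 of the 8 libraries ended the call (adjusted p from 0.0616 to 0.404).

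The 3 members that fell with knockout lie in one cluster near the end of the long arm. ZNF611 (chr19:52702813-52735073), a KRAB zinc finger gene, had 27.1 and 16.8 CPM in AAVS1 KO and 5.76 and 3.89 CPM in HOTSCRAMBL KO. Its base-edited groups overlapped, with 12.4 and 23.6 CPM for AAVS1 and 17.1 and 13.7 CPM for HOTSCRAMBL. The log2 fold change with knockout was -2.20 ± 0.519 (edgeR adjusted p = 0.00594), a call lost without AAVS1 KO replicate 1 or either HOTSCRAMBL KO library (adjusted p from 0.0973 to 0.280).

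ZNF761 (chr19:53431984-53461862), another KRAB member, was low after both kinds of editing at HOTSCRAMBL. It had 34.2 and 25.9 CPM in AAVS1 KO against 15.3 and 4.92 CPM in HOTSCRAMBL KO, and 25.95 and 25.01 CPM in AAVS1 CBE against 16.05 and 7.64 CPM in HOTSCRAMBL CBE. All 4 HOTSCRAMBL libraries lay below all 4 controls. The log2 fold change was -1.61 ± 0.392 with knockout (edgeR adjusted p = 0.00766), -1.07 ± 0.337 with base editing (adjusted p = 0.0465) and -1.34 ± 0.259 on average over the editors (adjusted p = 0.000562). Each single-library omission left the average past the threshold (adjusted p from 0.00326 to 0.0205), and each ended the base editing call (adjusted p from 0.0601 to 0.428). The knockout call was lost without either AAVS1 KO library or HOTSCRAMBL KO replicate 2 (adjusted p from 0.121 to 0.184).

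ZNF534 (chr19:52429148-52452315), a member reported to bind HERVH elements in pluripotent cells, was scarce throughout. Its counts were 170 and 58 in AAVS1 KO and 0 in both HOTSCRAMBL KO libraries. Against a mean floor of 0.144 CPM, from 3 counts per library, its AAVS1 KO mean of 4.49 CPM was 31.3-fold higher (edgeR adjusted p = 0.0350). That bound compares group means, and replicate 1 with 170 counts makes up most of the AAVS1 KO mean. In AAVS1 CBE, ZNF534 had 43 and 83 counts, and in HOTSCRAMBL CBE 0 and 19. The knockout call was lost in 7 of 8 omissions of a library, the exception being AAVS1 KO replicate 2 (adjusted p from 0.0639 to 0.454 where lost).

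The promoters of ZNF611 and ZNF761 are printed as a pair among the 3 members that fell with knockout. Capitals mark the runs of at least 12 aligned bases they share. ZNF611 is read on the minus strand, chr19:52735074-52735294, and ZNF761 on the plus strand, chr19:53431734-53431983 (RefSeq, GRCh38.p14).
ZNF611: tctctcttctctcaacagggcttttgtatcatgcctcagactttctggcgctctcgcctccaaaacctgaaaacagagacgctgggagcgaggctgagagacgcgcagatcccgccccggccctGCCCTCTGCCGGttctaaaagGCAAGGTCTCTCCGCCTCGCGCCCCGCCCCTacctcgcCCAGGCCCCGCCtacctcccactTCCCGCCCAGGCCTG
ZNF761: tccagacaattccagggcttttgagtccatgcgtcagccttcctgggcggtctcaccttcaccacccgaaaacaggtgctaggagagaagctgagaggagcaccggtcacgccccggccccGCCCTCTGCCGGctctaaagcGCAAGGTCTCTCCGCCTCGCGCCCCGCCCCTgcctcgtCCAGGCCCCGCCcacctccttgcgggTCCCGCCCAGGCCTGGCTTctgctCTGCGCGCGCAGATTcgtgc

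These promoters were 77.9% identical over the 250 aligned bases, with 5 shared runs and a longest run of 31 bases, while ZNF611 and ZNF431 were 45.1% identical. Of 7 members at or above 70% identity to ZNF761, 5 were tested and 1, ZNF611, passed the test with knockout. The share over all genes was 8.76%. ZNF845 and ZNF468 were low, at means of 6.65 and 4.55 CPM. Their log2 fold changes with knockout had SE of 0.673 and 0.790. ZNF845, the closest at 83.4%, had a log2 fold change with knockout of 1.65 (adjusted p = 0.151). ZNF765 and ZNF468, both at 79.5%, had -0.44 (adjusted p = 0.389) and -1.70 (adjusted p = 0.219), and ZNF468 had -1.20 with base editing (adjusted p = 0.198). ZNF808, at 76.0%, had 0.28 with knockout (edgeR adjusted p = 0.544). ZNF845, ZNF765, ZNF468 and ZNF808 were picked for their promoters after the values were seen. The promoter of ZNF534, which also fell with knockout, was 52.2% identical to that of ZNF611. The 95th percentile over pairs of members was 51.7%.

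**Figure D2:**
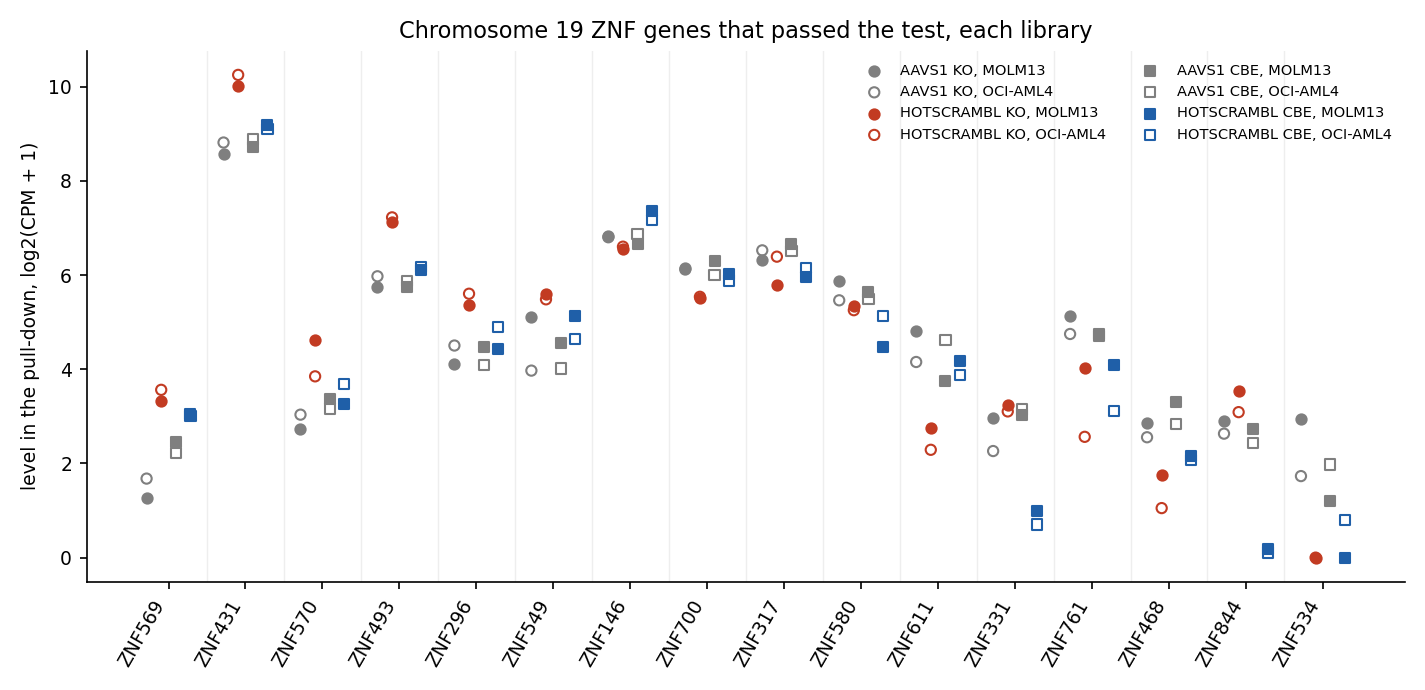
Level of each of the 16 members that passed any of the tests for knockout, base editing, their average or their difference, as log2(CPM + 1), with 1 point per library; colours give the edited target, shapes the editor, and filled or open symbols the labelled line. ZNF431 and ZNF493 have their red knockout points highest, and ZNF844 and ZNF331 have their blue base-edited points far below the rest.

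Base editing changed 6 of 186 tested members (3.23%), 2 higher and 4 lower, against 8.83% of all genes (4.56% higher and 4.27% lower). ZNF431 and ZNF146 rose, and ZNF844, ZNF331, ZNF580 and ZNF761 fell. There were 26 members (13.98%) at an unadjusted p under 0.05, against 20.1% of all genes. The median log2 fold change was -0.07 over the members and -0.02 over all genes, with 79 of 186 members positive. Without TMM the medians were -0.21 and -0.15, and 9 members (4.84%) were called, all lower, 4 of them among the 6, against 3.25% of all genes higher and 6.72% lower. The calls of ZNF431 and ZNF146 are therefore lost under that scaling. Without a term for the line, that is, without the pairing, 2 members (1.08%) were called, both lower, against 6.82% of all genes.

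ZNF146 (chr19:36214602-36238771), a protein made almost wholly of zinc fingers without a KRAB domain, had 100.4 and 117 CPM in AAVS1 CBE and 163 and 143 CPM in HOTSCRAMBL CBE. Its AAVS1 KO libraries had 113 and 111 CPM and its HOTSCRAMBL KO libraries 93.6 and 96.1 CPM, so the base-edited pair stood highest and the knockout pair lowest. The log2 fold change was 0.50 ± 0.142 with base editing (edgeR adjusted p = 0.0240) and -0.24 with knockout (adjusted p = 0.457). The difference between editors did not pass the test (adjusted p = 0.0594), and the base editing call was kept in 2 of 8 omissions of a library (adjusted p from 0.0561 to 0.497 where lost: both AAVS1 KO and all 4 CBE libraries). Of ZNF146 exonic bases, 10.8% lie under ZNF565.

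ZNF844 (chr19:12064731-12081565) was nearly absent from the HOTSCRAMBL CBE libraries. It had 189 and 124 counts in AAVS1 CBE (5.67 and 4.38 CPM) and 5 and 2 counts in HOTSCRAMBL CBE (0.139 and 0.0787 CPM), the lower of which lies under the floor of 3 counts. Its KO libraries held 6.43 and 5.20 CPM with AAVS1 and 10.7 and 7.51 CPM with HOTSCRAMBL, all above the base-edited pair. The fitted log2 fold change was -5.44 ± 1.27 with base editing (edgeR adjusted p = 0.00546). It was 0.64 with knockout (adjusted p = 0.549). As 45.3% of its exonic bases lie under 2 other annotated genes, where reads were counted for neither gene, its level rests on the other exonic bases. The base editing call was lost without AAVS1 CBE replicate 1 or either HOTSCRAMBL CBE library (adjusted p from 0.0574 to 0.229).

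ZNF331 (chr19:53519527-53580269), known as an imprinted gene, showed a like pattern without an annotated overlap. It had 7.11 and 7.84 CPM in AAVS1 CBE and 0.998 and 0.630 CPM in HOTSCRAMBL CBE, against 6.86 and 3.80 CPM in AAVS1 KO and 8.42 and 7.60 CPM in HOTSCRAMBL KO. The base-edited pair lay below the other 6 libraries. Its log2 fold change was -3.14 ± 0.753 with base editing (edgeR adjusted p = 0.00640) and 0.59 with knockout (adjusted p = 0.614). Leaving out any CBE library ended the base editing call (adjusted p from 0.0538 to 0.213).

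ZNF580 (chr19:55635016-55643470) encodes a short zinc finger protein studied in endothelial cells. It had 49.2 and 44.2 CPM in AAVS1 CBE and 21.2 and 34.1 CPM in HOTSCRAMBL CBE, with 57.4 and 43.1 CPM in AAVS1 KO and 39.4 and 37.1 CPM in HOTSCRAMBL KO. Both base-edited values were the lowest of the 8, though they differed from each other. The log2 fold change was -0.81 ± 0.250 with base editing (edgeR adjusted p = 0.0419) and -0.39 with knockout (adjusted p = 0.429). The base editing call was kept in 1 of 8 omissions, that of HOTSCRAMBL CBE replicate 2 (adjusted p from 0.0837 to 0.788 in the others). Its exons overlap CCDC106 and ZNF581 over 15.6% of their bases.

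ZNF431 and ZNF761 passed the test with both editors, which is 22.2% of the members called with knockout and 33.3% of those called with base editing. Over all genes, 814 passed with both, 38.6% of those called with knockout and 38.3% of those called with base editing. Over all 186 tested members, 105 (56.5%) had the same sign with knockout and base editing, and the share was 56.8% over all genes. Tested as an average over the editors, 13 members (6.99%) changed, 5 higher and 8 lower, against 12.3% of all genes (5.79% higher and 6.51% lower). Without TMM there were 23 (12.4%), 5 higher and 18 lower, against 4.14% of all genes higher and 10.8% lower. ZNF431, ZNF493, ZNF549, ZNF569 and ZNF296 were higher, and ZNF761, ZNF534, ZNF611, ZNF580, ZNF317, ZNF844, ZNF468 and ZNF700 were lower. Of these, ZNF317, ZNF468 and ZNF700 passed neither single comparison; ZNF468 and ZNF700, named after their values were seen, had -1.45 (edgeR adjusted p = 0.0433) and -0.41 (adjusted p = 0.0477). The calls of ZNF431, ZNF493 and ZNF761 were kept whichever library was left out. ZNF317 (chr19:9140397-9163424) had 78.6 and 91.0 CPM in AAVS1 KO against 54.0 and 82.9 CPM in HOTSCRAMBL KO, and 99.4 and 90.6 CPM in AAVS1 CBE against 61.1 and 70.2 CPM in HOTSCRAMBL CBE. Its pairs overlapped with knockout and were apart with base editing, and the average log2 fold change was -0.43 ± 0.130 (edgeR adjusted p = 0.0296). Leaving out 1 library ended that call in 6 of 8 cases (adjusted p from 0.113 to 0.301), the exceptions being HOTSCRAMBL KO replicate 2 and AAVS1 CBE replicate 2.

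The effects of knockout and base editing differed in 4 members (2.15%), against 3.19% of all genes, in the interaction test of knockout minus base editing. All 4 had the more positive value with knockout (1.74% of all genes were called in that direction and 1.45% in the other): ZNF431 by 1.08 ± 0.138 (edgeR adjusted p = 1.35e-05), ZNF493 by 0.99 ± 0.243 (adjusted p = 0.0198), ZNF844 by 6.08 ± 1.42 (adjusted p = 0.0129) and ZNF331 by 3.73 ± 0.961 (adjusted p = 0.0278) on the log2 scale. The first pair rose more with knockout, and the second pair fell with base editing. ZNF431 kept this difference whichever library was left out (adjusted p from 0.000291 to 0.00725). The ZNF493 and ZNF331 differences were lost with each of the 8 omissions (adjusted p from 0.0855 to 0.189 and from 0.0917 to 0.245), and that of ZNF844 with all but HOTSCRAMBL KO replicate 2 (adjusted p from 0.0660 to 0.229).

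**Figure D3:**
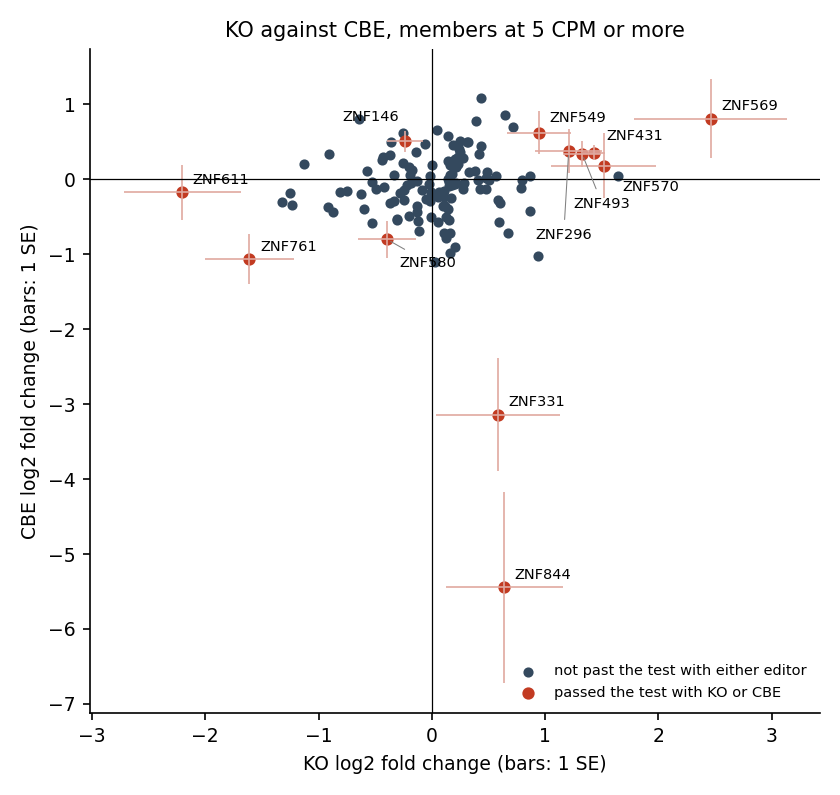
Log2 fold change of HOTSCRAMBL against AAVS1 with knockout (x axis) and with base editing (y axis) for the 132 members with a mean of at least 5 CPM; red points passed the test with either editor, and bars are 1 SE. ZNF431 and ZNF493 lie to the right at 0.35 and 0.34 on the y axis, ZNF761 lies low on both axes, and ZNF331 and ZNF844 lie far down, at 0.59 and 0.64 on the x axis.

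The members' calls were set beside those of similar genes, overall and within ranges of CPM. ZNF genes on other chromosomes were called in 25 of 221 cases with knockout (11.3%; 6 higher, 19 lower) and in 29 with base editing (13.1%; 6 higher, 23 lower). Coding genes with other zinc finger symbols were closer to the members, at 7 of 81 with knockout (8.64%), 5 with base editing (6.17%) and 1 for the difference between editors (1.23%, against 2.15% of members). Other coding genes on chromosome 19 were called in 178 of 882 cases with knockout (20.2%) and 185 with base editing (21.0%). Among genes at 20 CPM and over, 4 of 71 members passed with knockout (5.63%) and 3 with base editing (4.23%). At that level the shares over all genes were 22.4% and 24.1%, and for ZNF genes on other chromosomes 17.9% and 20.8% of 106. At 50 CPM and over, 2 of 25 members passed with knockout (8%), ZNF431 and ZNF493, and 2 with base editing (8%), ZNF431 and ZNF146. Over all genes at that level the shares were 31.1% and 33.7%. Between 5 and 20 CPM the members' share with knockout, 4 of 61 (6.56%), was close to that of all genes, 6.54%, and of ZNF genes on other chromosomes, 6.10%. No test of one set against another was run.

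The labelled lines were also compared gene by gene. At 20 CPM and over, 57.7% of members moved the same way in both with knockout and 59.2% with base editing, while the shares over all genes were 72.6% and 74.9%. Over all levels the members' shares were 59.1% and 57.0%, and those of all genes 61.6% and 62.9%. The libraries of a group also differed at single members: the median ratio of the higher to the lower library over tested members with counts in both, ran from 1.28 in AAVS1 KO to 1.46 in HOTSCRAMBL KO.

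**Figure D4:**
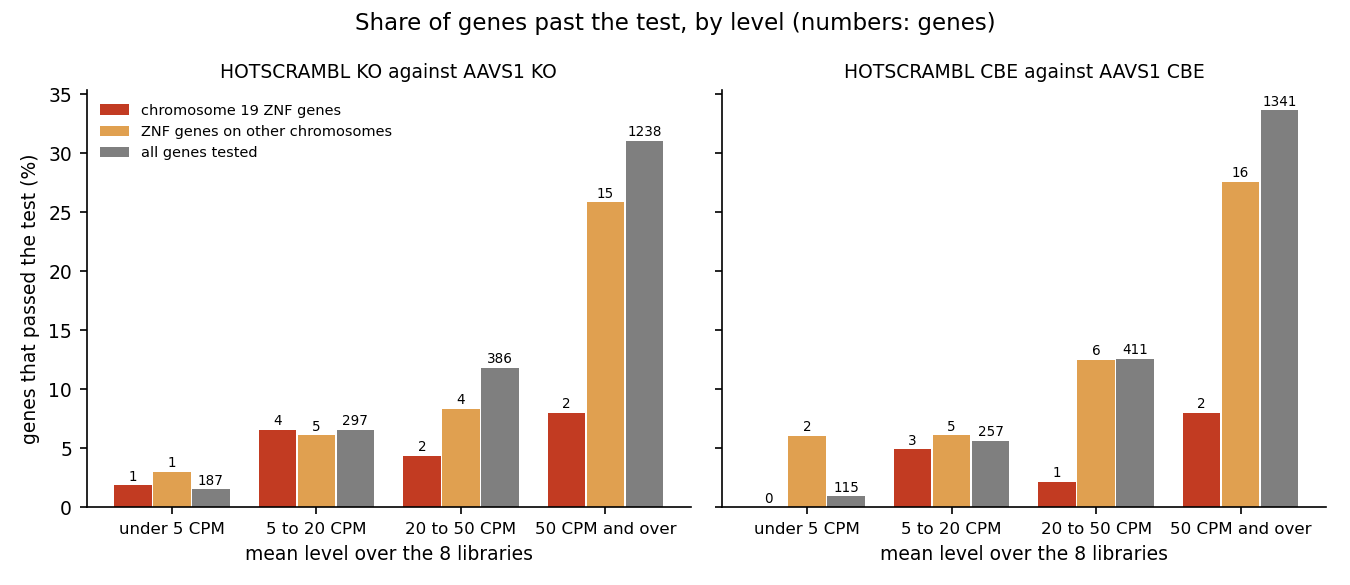
Percent of tested genes that passed the test with knockout or base editing, in 4 ranges of mean CPM, for the chromosome 19 ZNF genes, ZNF genes on other chromosomes and all genes tested. The members' share stays between 0 and 8.00% in every range, while that of all genes reaches 31.1% with knockout at 50 CPM and over.

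Along the chromosome, members were grouped wherever neighbours lay within 1000000 bases, which gave 16 groups. The cluster with ZNF431 and ZNF493 (chr19:19668796-24129968) held 37 members, of which 15 were tested, and these 2 were its only members called with knockout. The cluster with ZNF611, ZNF761, ZNF534 and ZNF331 (chr19:51571283-53580269) held 39 members, 27 of them tested. All 3 members that fell with knockout lie in it, and so do 2 of the 4 that fell with base editing. There, 21 of 27 members had a negative average log2 fold change, with a median of -0.64, against -0.06 over all members. That shift sat in scarce genes: among the 15 with at least 5 CPM the median was -0.04, and 9 were negative. In the separate pairs, 17 and 13 of the 27 were lower with knockout and 16 and 18 with base editing, replicates 1 and 2 in turn. The 48 tested members at the end of the chromosome beyond the AAVS1 site had medians of 0.04 with knockout and -0.08 with base editing, and the 138 before it 0.14 and -0.07. PPP1R12C itself (chr19:55090914-55117637), the gene that holds the control site, had 365 and 387 CPM in AAVS1 KO against 235 and 242 CPM in HOTSCRAMBL KO, and 373 and 365 CPM in AAVS1 CBE against 168 and 135 CPM in HOTSCRAMBL CBE. It was lower in both comparisons (log2 fold change -0.66 and -1.28, edgeR adjusted p = 0.000364 and 1.93e-08). Whether editing at the control site contributed to any value of the members was not tested.

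**Figure D5:**
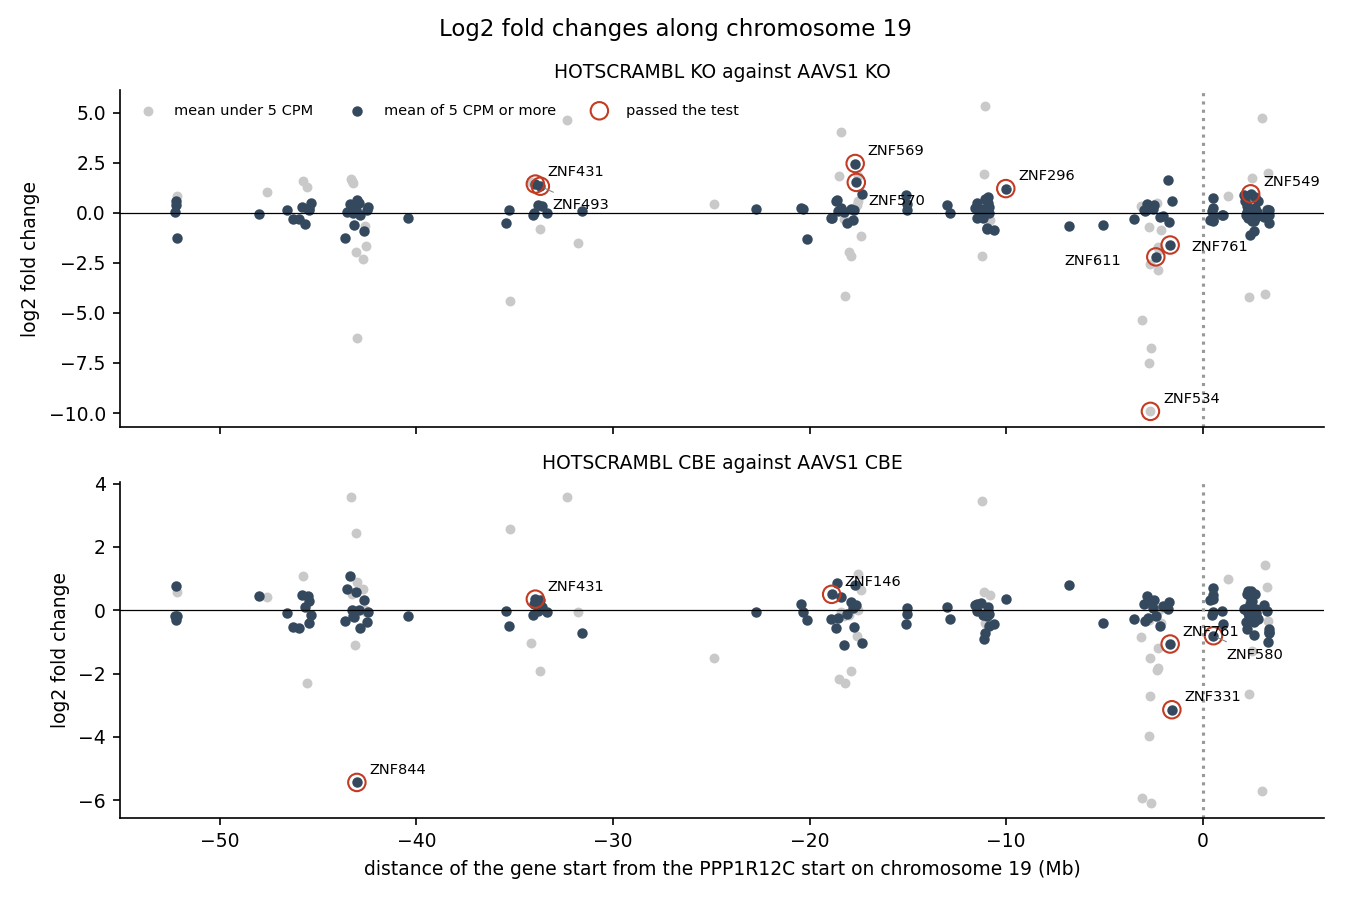
Log2 fold change of each tested member with knockout (upper panel) and base editing (lower panel) against the distance of its start from the start of PPP1R12C, in megabases; grey points have a mean under 5 CPM and red rings mark members that passed the test. ZNF431 and ZNF493 sit together above 0 at about the same place, and ZNF611, ZNF761 and ZNF534 sit below 0 near the dotted line.

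What the members share beyond name and place is the zinc finger array itself, visible in the coding sequence as a repeated linker between fingers. The linker was searched as a motif of 14 bases, with free letters at the variable codon positions, on the coding strand of each gene's longest GENCODE v29 coding sequence. It was found in 214 of 247 members (86.6%), with a median of 6 copies and up to 25. ZNF genes on other chromosomes held it in 176 of 262 cases (67.2%; median 2), and the remaining coding genes in 106 of 18976 (0.559%). Neighbouring copies in members were 84 bases apart, the length of 1 finger with its linker, in 822 of 1285 cases (64.0%). The stretches below, coding bases 763 to 944 of ZNF431 and 1045 to 1226 of ZNF761, show that rhythm in a member that rose and one that fell, with linkers in capitals.
ZNF431: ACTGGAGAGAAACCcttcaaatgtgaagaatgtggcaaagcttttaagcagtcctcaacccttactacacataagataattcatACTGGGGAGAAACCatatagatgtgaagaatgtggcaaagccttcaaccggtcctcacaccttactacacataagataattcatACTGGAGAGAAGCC
ZNF761: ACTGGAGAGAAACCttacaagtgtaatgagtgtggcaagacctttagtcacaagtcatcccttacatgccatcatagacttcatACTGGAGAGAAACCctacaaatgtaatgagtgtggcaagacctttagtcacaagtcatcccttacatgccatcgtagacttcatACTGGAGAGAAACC

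Letter by letter, these stretches were identical at 70.9% of positions. Likeness between genes can bear on the counting, since reads placed at several positions were left out. Over members, a median of 4.03% of the 50-base words of the transcripts also occurred in another gene, and 37 members, 28 of them tested, had over 20%. Words in annotated genes that overlap a member were included, so the share does not measure likeness of the fingers alone. In ZNF709 it was 92.0%, with 79.4% of exonic bases under other genes. The share was 6.43% for ZNF431, 7.50% for ZNF493, 13.6% for ZNF611, 11.2% for ZNF761 and 0% for ZNF331, ZNF534 and ZNF569. ZNF genes that passed the tests were found with and without the linker: ZNF569 has 14 copies, ZNF431 and ZNF493 have 7 each, and ZNF296 and ZNF580 have none. Exons of 149 members overlap those of another gene on either strand, and reads over such shared bases were counted for neither gene.

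The members are poorer in G and C than their neighbours on the chromosome. Their transcripts had a median GC content of 42.3%, against 60.2% for other coding genes on chromosome 19 and 45.2% for ZNF genes on other chromosomes. In these libraries GC content moved with the fold changes of other coding genes: the median went from 0.10 with knockout and 0.21 with base editing in the lowest of 5 GC bins to -0.26 and -0.33 in the highest. The 70 members in the lowest bin had medians of 0.11 and -0.06. The part of GC content in the results was not tested.

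Short motifs in the 250 bases before each start were counted on both strands in 268 promoters of 216 members. The CCAAT box (CCAAT) was present in 47.4% of member promoters, 38.2% of promoters of other ZNF genes and 32.0% of all 35116 promoters. The GC box (GGGCGG) was present in 61.6%, 54.2% and 42.6%, and the ETS core (CCGGAAG) in 28.4%, 23.6% and 8.52%. TATAAA was present in 2.61%, 5.21% and 10.7%. Among the genes whose promoters are printed above, CCAAT was found for ZNF431, ZNF493 and ZNF714, CCGGAAG for ZNF431 and ZNF493, and GGGCGG for ZNF493, ZNF611 and ZNF761. Over the 22 promoters of members that passed the test with knockout or base editing, CCAAT was in 8 (36.4%), GGGCGG in 11 and CCGGAAG in 5 (22.7%). The E-box CACGTG was in 4.10% of member promoters and 6.34% of all, TGACGTCA in 2.61% and 1.65%, and the palindromic NRF1 motif in 2.61% and 1.03%. A match describes the letters and is not evidence of binding.

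The partners through which KRAB proteins silence chromatin were followed as a list of 28 genes, all tested. With knockout none was called higher and 5 were lower (17.9%), and with base editing 1 was higher and 6 were lower (25% in all). All of these calls were among the 25 listed genes at 20 CPM and over, where they make 20% and 28%, near the 22.4% and 24.1% of all genes at that level, so the counts do not set the list apart. TRIM28, the scaffold that KRAB domains bind, had 322 and 267 CPM in AAVS1 KO, 239 and 297 CPM in HOTSCRAMBL KO, 268 and 255 CPM in AAVS1 CBE, and 325 and 318 CPM in HOTSCRAMBL CBE. The knockout groups overlapped. Its log2 fold changes of -0.13 and 0.30 did not pass the test (edgeR adjusted p = 0.621 and 0.138). SETDB1, the methyltransferase, had log2 fold changes of -0.37 and -0.34 (adjusted p = 0.201 and 0.207). MORC2, an ATPase that works with the HUSH silencing complex, fell from 153 and 114 to 56.5 and 61.4 CPM with knockout and from 157 and 108 to 74.4 and 66.8 CPM with base editing. Every HOTSCRAMBL library lay below every control (log2 fold change -1.16 and -0.91, edgeR adjusted p = 6.02e-05 and 0.000372). The knockout call of MORC2 was kept in every omission of a library, and the base editing call was lost without AAVS1 CBE replicate 1 or HOTSCRAMBL CBE replicate 1 (adjusted p = 0.114 and 0.106).

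The other corepressor genes named here fell with one or both editors. Over the list of 28 genes, 7 had a positive log2 fold change with knockout and 16 with base editing. EHMT1, a methyltransferase of histone H3, fell by 0.55 and 0.67 on the log2 scale (edgeR adjusted p = 0.00736 and 0.000708). MPHOSPH8, a HUSH subunit, fell by 0.85 with base editing (adjusted p = 7.16e-06) and had -0.32 with knockout (adjusted p = 0.0879). CHD3, a NuRD remodeller, fell by 0.57 with base editing (adjusted p = 0.000568), and ATF7IP, the partner of SETDB1, by 0.65 with knockout (adjusted p = 0.0235). MPHOSPH8 kept its call in every omission of a library. EHMT1 lost the knockout call without AAVS1 KO replicate 1 or either HOTSCRAMBL KO library and the base editing call without AAVS1 CBE replicate 2, CHD3 lost its call without replicate 1 of either CBE group, and ATF7IP lost its call in 5 of 8 omissions: either AAVS1 KO library, HOTSCRAMBL KO replicate 1 and either HOTSCRAMBL CBE library (adjusted p from 0.0512 to 0.450 over the losses of these genes). With any 1 library left out, no more genes of the list were called than with every library kept. Without TMM 10 were called with knockout and 7 with base editing, all lower. Under that scaling more of all genes were also called lower than higher, with either editor. The medians of the list, -0.21 with knockout and 0.12 with base editing, stood beside -0.01 and -0.02 over all genes.

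Between the control groups, AAVS1 KO against AAVS1 CBE, no member passed the edgeR test, and 0% of all genes did. DESeq2 called 0 members and 35 genes in all, and at an unadjusted p under 0.05 edgeR listed 9 members (4.84%) against 3.82% of all genes. The smallest p-values belonged to scarce members. ZNF878 and ZNF8 had more in AAVS1 KO (log2 difference 2.60 and 3.91), and ZNF426 and ZNF530 more in AAVS1 CBE (-2.97 and -3.24), all with an adjusted p of 0.991. Their 8 library values stayed under 8 CPM.

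Between the labelled lines 1 member passed, against 0.495% of all genes (0.237% higher in libraries labelled MOLM13 and 0.258% lower). ZNF808, reported to bind endogenous retroviral elements and to be needed in pancreas development, was higher in the libraries labelled MOLM13. These had 70.4, 76.0, 61.2 and 60.4 CPM and those labelled OCI-AML4 34.6, 49.7, 27.6 and 47.4 CPM, with the KO groups first, the CBE groups next, and AAVS1 before HOTSCRAMBL in each. The labelled lines did not overlap, and the log2 difference was 0.76 ± 0.157 (SE, n = 4 libraries per labelled line; edgeR adjusted p = 0.0162). Of its 50-base words, 28.9% occur in other genes. The call was kept without either HOTSCRAMBL CBE library and lost in the other 6 omissions (adjusted p from 0.180 to 0.493). Next in order were ZNF460, with 0.32 (adjusted p = 0.149), and ZNF433 and ZNF428, with -0.94 (adjusted p = 0.284) and -0.78 (adjusted p = 0.451).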

How the data were processed

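RNA counts from 8 ChIRP libraries of human acute myeloid leukaemia lines were read from 1 deposited table. It holds raw counts, whole numbers for each gene, which the authors made, per the file headers, with featureCounts 2.0.6 on GRCh38 genes of Ensembl 112. Both reads of a pair were counted separately, strand was not used, and reads at several positions or over several genes were not counted, per the file headers. The aligner is not given in the sources used here. Groups came from the titles, and 0 columns of other samples were found.

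Genes were fitted with edgeR 4.0.16 (quasi-likelihood F-test, robust) in R 4.3.3, with TMM scaling. filterByExpr at a minimum count of 10 kept 24057 genes. All 8 libraries shared the spread, with a term per group and one for the labelled line, leaving 3 residual degrees of freedom. Benjamini-Hochberg adjustment ran over all genes tested, with a threshold of 0.05. Levels are CPM after TMM scaling, and floors are 3 counts per library. The fit was tested on simulated data. Libraries were paired by their labelled cell line; across all tested genes, same-numbered libraries had correlations of their deviations from group means between 0.0203 and 0.0530, so the values show little pairing. Alternatives covered scaling, filter, test (DESeq2 1.42.0, limma 3.58.1), block and omitted libraries; the legacy dispersion and the alternatives for the corepressor count and for ZNF570 were added after the data were seen. Biotypes and coding sequences came from GENCODE v29 and promoters from RefSeq. Promoters were aligned with Biopython 1.88.

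Members and lists were chosen with earlier results of these data known. Named members were those past the threshold with the 5 smallest p-values in each direction for knockout, base editing, average and difference, those called with both editors, the 2 smallest p-values in each direction between controls and between lines, and the 5 highest per kilobase. From the corepressor list, TRIM28, SETDB1 and the 4 called genes with the smallest p-values per editor were named, except 1 gene that is not reported here.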

Additional observations from a re-analysis of the deposited data

Results flagged for a closer look

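In 4 members the effect of editing HOTSCRAMBL differed between the editors by the interaction term of the edgeR fit. Knockout minus base editing on the log2 scale was 1.083 for ZNF431, 0.9881 for ZNF493, 6.082 for ZNF844 and 3.732 for ZNF331. ZNF844 had 5 and 2 counts in the HOTSCRAMBL CBE libraries, and 45.3% of its exonic bases lie under other genes. ZNF331 has no annotated overlap and had 36 and 16 counts there. Each group has 2 libraries, and no cause of these differences was tested.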

How the results depend on the processing

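Calls of ZNF431 (knockout, average, difference), ZNF493 (knockout, average) and ZNF761 (average) were kept in every alternative run. Members called with knockout numbered 9, and 25 with DESeq2 (13.4%, against 17.3% of all genes) and 2 with only the 4 libraries of the contrast (1.08% against 2.75%). With base editing they numbered 6, and 14 with DESeq2 (7.53% against 13.9%), 0 with 4 libraries (2.19% of all genes) and 10 with the legacy dispersion (5.38% against 8.69%), an alternative chosen after seeing the data. The pairing by line was kept in the design; with no replicate block, base editing had 2 calls instead of 6 (6.82% of all genes) and the corepressor list 3 with knockout instead of 5. Average calls were 13, and 23 without TMM (12.4% against 14.97%) and 27 with DESeq2 (14.5% against 20.2%). Difference calls were 4, and 10 with DESeq2 (5.38% against 9.17%), and calls between labelled lines 1, and 5 with DESeq2 (2.69% against 2.97%). Corepressor calls with knockout were 10 without TMM, where more of all genes were called lower than higher. With DESeq2 they were 9 (17.3% of all genes). With only 4 libraries there was 1 with either editor (2.75% of all genes with knockout and 2.19% with base editing). Leaving out 1 library gave 2 to 6 calls with knockout, 0 to 4 with base editing, 4 to 8 for the average, 1 to 2 for the difference and 0 to 1 for the labelled line, and 1 to 4 and 2 to 7 for the corepressors. The members' median moved, without TMM, to -0.0464 (knockout), -0.21 (base editing), -0.21 (average) and 0.0699 (difference). Without the filter it was -0.12 (base editing) and 0.22 (difference). For the difference it was 0.12 with DESeq2 size factors, 0.0945 with DESeq2, 0.0488 with limma-voom and 0.0599 with the legacy dispersion. Leaving out 1 library gave medians from -0.0812 to 0.13 (knockout), -0.15 to 0.00571 (base editing), -0.11 to 0.0240 (average) and -0.0719 to 0.20 (difference). TRIM28, not called, ran with knockout from -0.37 to 0.0671 when 1 library was left out, turning positive without AAVS1 KO replicate 1 (0.0440) and without HOTSCRAMBL KO replicate 1 (0.0671). Beyond the construction of each alternative, the cause was not tested. There were 2 libraries per group, with a common biological coefficient of variation of 0.708, and 1 of the 54 tested members under 5 CPM was called with knockout and 0 with base editing (1.53% and 0.938% of all genes at that level).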
